A study of Mus musculus with 14 samples.

Results

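The genes described here are the collagens and the matrix and receptor genes that fibroblasts are known for, in 4T1 tumours and in cultured 4T1 cells. They were chosen by symbol: every listed gene named as a collagen chain except Col17a1, with Fn1, Postn, Dcn, Lum, Bgn, Fbn1, Fbln1, Fbln2, Eln, Lox, Loxl1, Loxl2, Pcolce, Pdgfra, Pdgfrb and Fap. This gave 46 of the 13414 genes listed for tumours and 31 of the 11793 genes listed for cultures, 47 genes in all. Of these 47, 31 are collagens, 30 were listed for both, 16 for tumours alone and 1 (Fap, a serine protease on the surface of activated fibroblasts) for cultures alone.

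Collagens are triple helices of 3 chains that are hydroxylated in the endoplasmic reticulum, secreted as procollagens, trimmed outside the cell and crosslinked by lysyl oxidases. The fibrillar types I, III and V form the fibrils of connective tissue, type IV forms the network of basement membranes, type VI forms beaded microfibrils, and the fibril-associated types coat fibril surfaces. In breast tumours much of the fibrillar collagen is known to come from fibroblasts of the host, whereas fibronectin and basement membrane collagens can also be made by the cancer cells and by vessels. TAZ, encoded by Wwtr1, is a coactivator of the TEAD transcription factors in the Hippo pathway, and it is known as a sensor of matrix stiffness.

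The study compared shTAZ with shC 4T1 cells, a mouse line of triple-negative breast cancer, as tumours and in culture. Both were pools of cells, selected with puromycin, that carried a doxycycline-inducible short hairpin RNA delivered by lentivirus, directed at TAZ in shTAZ and scrambled in shC. For tumours, the cells had doxycycline in culture for 48 h and were then injected into the mammary fat pads of 8-week-old female BALB/c mice. These mice were fed doxycycline chow, and tumours were taken 6 weeks after injection (4 shTAZ and 4 shC). The cultures measured here also had doxycycline for 48 h (3 shTAZ and 3 shC). The sample labels name no treatment and give the genotype as WT. Only the injected cells carried a hairpin, and the cells of the host in the tumours carried none. The labels do not say whether samples of a group came from separate mice or cultures, although the paper describes 4 shC and 4 shTAZ tumours. The p values then measure only the spread between these samples, which for cultures may be technical.

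The hairpin sequences of the study are shown because they define the groups, with the shTAZ sequence in capitals, since all of it is the reverse complement of coding sequence of Wwtr1 (target at chr3:57501788-57501806, GRCm38, with the gene on the minus strand). The shC sequence, in lower case, matched none of 141767 annotated mouse transcripts, and neither sequence matched any of the 264 annotated transcripts of the genes described here.
shTAZ: GACGGGTGGAGGTTCACAT
shC: cacacaacatgtaaaccaggga

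RNA was measured by a bulk form of MARS-seq, which counts the 3′ ends of transcripts. Each transcript therefore gives about the same number of reads whatever its length, and levels of genes are given as CPM, each count divided by the TMM-normalized library size and scaled to a common total. The total count was 1659736 to 3179767 in shTAZ tumours, 2282612 to 22364483 in shC tumours, 2243071 to 7959163 in shTAZ cells and 6820673 to 14815813 in shC cells. The highest total among tumours belonged to shC tumour 1 alone, and the other shC tumours had 2282612 to 2968827. Wwtr1 was at 19.6 ± 5.27 CPM in shTAZ tumours and 39.9 ± 15.0 CPM in shC tumours (SD, n = 4 each), a log2 fold change of −1.03 (SE 0.30), and no shTAZ tumour reached the lowest shC tumour. The two-sided p by exact permutation was 0.0286, which 4 against 4 cannot go below. Without shC tumour 1, Wwtr1 was at −0.74 (SE 0.27) on the log2 scale. In cultures it was at 8.22 ± 2.24 CPM in shTAZ cells and 31.9 ± 7.83 CPM in shC cells (SD, n = 3 each), a log2 fold change of −2.25 (SE 0.35), again without overlap. There the exact permutation p was 0.1, which 3 against 3 cannot go below. Its adjusted p over all genes was 0.923 in tumours and 0.0647 in cells (edgeR). In cells the side of the threshold of 0.05 changed with the fit: the adjusted p was 8.77e-06 with DESeq2, 0.00539 with a replicate block in place of the surrogate variable (an estimate of unlabelled variation) and 1.00 with neither (edgeR for both), and the direction was the same in each. Some tumours held markers of other tissues. The 9 listed genes of epidermal keratinization summed to 3666 and 2083 CPM in shTAZ tumours 3 and 4 and to 438 CPM in shC tumour 2, and to at most 40.6 CPM in each of the others. The 8 smooth muscle markers summed to 8623 CPM in shC tumour 2 and the 5 urothelial markers to 664 CPM, and were at most 533 CPM and 5.52 CPM in each of the other tumours. The part of these tissues in the values below was not tested, and values without shC tumour 2 are given for the genes whose sign turns without it.

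Type I and III collagens, the type VI chains Col6a2 and Col6a3, biglycan and lysyl oxidase-like 1 were expressed in tumours and near 0 in cultured cells, whereas fibronectin, type IV, VII, XVI and XVIII collagens, fibulin 2 and procollagen C-endopeptidase enhancer were abundant in both. For 16 of the 30 genes listed for both, every one of the 8 tumours was above every one of the 6 cultures, where 12.8% of the 11150 genes listed for both did so, and for 1 of 30 every tumour was below every culture, against 7.65% of all. Tumours and cultures were normalized separately, and tissue and sequencing run cannot be told apart. In bulk samples, fewer cells of a type and less RNA per cell cannot be told apart either. Libraries of both hairpins are pooled in the ranges of this comparison, which has no test.

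The chains of types I and III were among the genes with the widest gap. Col1a1, the main chain of type I collagen (chromosome 11 from 94936224 to 94953042, GRCm38), averaged 1863 CPM over tumours (745 to 2677) and 1.35 CPM over cultures (0.607 to 2.94), and the 6 cultures held 49 of its counts together. Col1a2, the other chain of type I (chromosome 6 from 4504814 to 4541544), averaged 563 CPM over tumours (255 to 864) and 1.71 CPM over cultures (0.593 to 4.30). Col3a1, the single chain of type III (chromosome 1 from 45311538 to 45349706), averaged 429 CPM over tumours (177 to 698) and 0.993 CPM over cultures (0 to 2.39). In each of these, the lowest tumour was more abundant than the highest culture by a wide margin. Col5a1, a chain of the type V collagen that sets fibril diameter, was closer in the 2 settings, with 93.6 CPM over tumours (60.3 to 139) and 14.5 CPM over cultures (10.7 to 25.2). Bgn, which encodes the small proteoglycan biglycan (chromosome X from 73483602 to 73495933), averaged 413 CPM over tumours (227 to 605) and 1.06 CPM over cultures (0.591 to 2.52). Loxl1, a lysyl oxidase that acts on elastic fibres, averaged 37.9 CPM over tumours (18.5 to 76.2) and 1.15 CPM over cultures (0.472 to 2.14). Of type VI collagen, Col6a2 averaged 177 CPM over tumours (121 to 202) and 0.938 CPM over cultures (0.186 to 2.10) and Col6a3 53.6 CPM over tumours (42.6 to 83.8) and 0.244 CPM over cultures (0 to 0.827), whereas Col6a1 was also present in cultures, with 149 CPM over tumours (93.9 to 209.6) and 12.7 CPM over cultures (6.47 to 16.5). Col15a1, a collagen of basement membrane zones, Col12a1, a fibril-associated collagen, Col27a1, Col9a3 and Postn were the other genes near 0 in cultures that were higher in every tumour than in every culture, with means of 0.217 to 0.937 CPM there and 3.73 to 102 CPM in tumours.

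A second set was expressed by the cultured cells themselves. Fn1, which encodes fibronectin (chromosome 1 from 71585520 to 71653200), was the most abundant of all the genes described here in both settings, with 4527 CPM over tumours (2684 to 7086) and 931 CPM over cultures (667 to 1127), and Col7a1, the anchoring fibril collagen of the epithelial basement membrane, averaged 265 CPM over tumours (159.7 to 361) and 79.6 CPM over cultures (66.3 to 118). For both, every tumour was above every culture. The ranges of tumours and cultures overlapped for the other genes that were abundant in cultures. Col18a1, the precursor of endostatin, averaged 458 CPM over tumours (308 to 568) and 546 CPM over cultures (417 to 756), and Col4a2, a chain of type IV collagen, averaged 440.0 CPM over tumours (185 to 882) and 416 CPM over cultures (332 to 509). Col4a1, the other main chain of type IV, averaged 664 CPM over tumours (273 to 1001) and 309 CPM over cultures (217 to 383). The elastic fibre glycoprotein gene Fbln2 averaged 244 CPM over tumours (161 to 378) and 267 CPM over cultures (214 to 301), the enhancer of procollagen C-proteinase Pcolce 343 CPM over tumours (263 to 443) and 191 CPM over cultures (96.2 to 289.9), and the fibril-associated collagen Col16a1 162 CPM over tumours (117 to 217) and 134 CPM over cultures (82.3 to 166). Col8a1, a network-forming collagen of vessel walls, was the one gene lower in every tumour than in every culture, with 6.75 CPM over tumours (3.82 to 12.3) and 19.9 CPM over cultures (12.9 to 27.7).

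**Figure D1:**
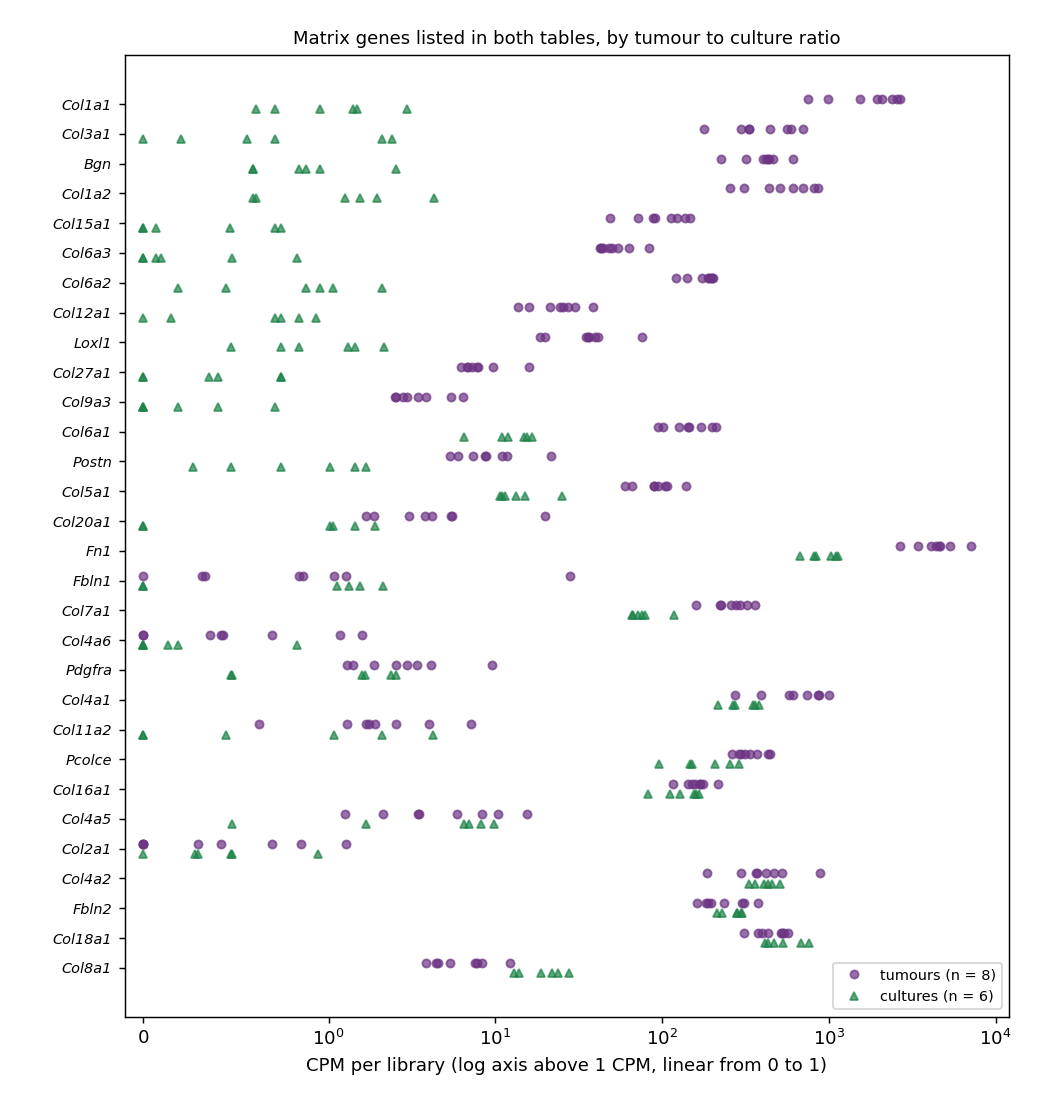
Level of each gene listed for both tumours (circles, 8 libraries) and cultures (triangles, 6 libraries), in CPM on an axis that is logarithmic above 1 CPM and linear from 0 to 1, with genes ordered by the ratio of the means. Col1a1 is at 745 to 2677 CPM in tumours and 0.607 to 2.94 CPM in cultures, while Col18a1 overlaps and Col8a1 is lower in every tumour.

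Genes by which fibroblasts are usually recognised spanned a wide range in these tumours. Pdgfra, the PDGF receptor of fibroblasts, had 4.11, 2.94, 1.88 and 3.40 CPM in shTAZ tumours 1 to 4, against 9.496, 1.39, 1.29 and 2.53 CPM in shC tumours 1 to 4. Lum, which encodes the proteoglycan lumican, was at 0.316 to 2.10 CPM in shTAZ tumours and 0.251 to 1.74 CPM in shC tumours. Dcn, which encodes decorin, was at 5.03 to 68.6 CPM, and Pdgfrb, the PDGF receptor of pericytes and fibroblasts, at 55.2 to 123 CPM. Both chains of type I collagen were above all 4 of these genes in each tumour. A list of 14 other fibroblast markers summed to 1054 to 2251 CPM in shTAZ tumours and 489 to 2057 CPM in shC tumours. In cultures, where 6 of the 14 were listed, they summed to 620.0 to 2866 CPM in shTAZ cells and 606 to 2446 CPM in shC cells. Few genes made up these sums: 2 of the 6 passed the expression filter in cultures. In shTAZ cells 1, which had the highest sum, 4 of the 6 had 0 counts. Fap had 0, 0 and 0 counts in shTAZ cells 1 to 3 and 0, 0 and 7 counts in shC cells 1 to 3, and it was not analysed in tumours.

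Upstream sequence is shown for 2 genes near 0 in cultures, Col3a1 (chr1:45311288-45311537, plus strand) and Bgn (chrX:73483351-73483600, plus strand), and for Col7a1 (chr9:108953336-108953585, plus strand), which the cultured cells also express. Each run is the 250 bases before the RefSeq start on GRCm38.p6, 5′ to 3′, and holds no annotated exon. Capitals mark GGAATG, the core that TEAD factors bind, or its reverse complement, and the CCAAT box or its reverse complement.
Col3a1: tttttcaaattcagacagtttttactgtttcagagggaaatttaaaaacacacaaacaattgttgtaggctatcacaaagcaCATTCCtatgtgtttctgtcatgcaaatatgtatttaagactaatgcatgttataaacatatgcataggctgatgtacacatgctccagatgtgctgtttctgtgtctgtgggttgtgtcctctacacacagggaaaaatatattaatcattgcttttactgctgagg
Bgn: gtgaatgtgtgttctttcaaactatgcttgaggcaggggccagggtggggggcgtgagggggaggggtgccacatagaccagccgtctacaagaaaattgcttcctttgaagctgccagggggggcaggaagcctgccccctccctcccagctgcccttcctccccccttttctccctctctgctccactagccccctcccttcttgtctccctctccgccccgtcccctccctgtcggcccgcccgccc
Col7a1: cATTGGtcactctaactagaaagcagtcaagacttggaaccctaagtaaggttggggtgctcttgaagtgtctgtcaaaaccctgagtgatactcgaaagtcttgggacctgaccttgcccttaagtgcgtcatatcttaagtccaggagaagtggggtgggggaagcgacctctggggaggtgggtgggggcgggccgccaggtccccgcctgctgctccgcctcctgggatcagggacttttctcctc
RefSeq windows were at hand for 32 of the 47 genes (36 windows). GGAATG was present on either strand in 4 of the 36 (11.1%), against 12.6% of all 32851 windows of this length, and CCAAT in 9 of the 36 (25%), against 33.8%, each motif being counted apart from the other. A match is a run of letters and not a bound site.

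The next comparison asked whether silencing of TAZ in the cancer cells changed these genes in tumours. None was called changed, from the chains of type I collagen to fibronectin and elastin. Of the 46 genes, 32 passed the expression filter, and 0 of these had an adjusted p under 0.05, the share over all 9196 genes tested being 0% (edgeR). At an unadjusted p under 0.05 there were also 0 of 32 with edgeR and 0 with DESeq2, where 3.98% of all genes had such a p with edgeR. Groups that did not overlap were found for 0 of 32, against 2.39% of all. The fitted fold change was below 0, lower in shTAZ tumours, for 26 of the 32 and above 0 for 6, against 51.5% of all genes below 0, and the median log2 fold change was −0.21, against −0.010 over all genes. Without shC tumour 2 there were 16 lower and 16 higher with a median of −0.0040, and without any other single tumour 24 to 29 were lower. That tumour was singled out after seeing the data. It held the highest value for 11 of the 32 genes and the lowest for 0, so leaving it out moves fold changes upward. Without both shC tumours 1 and 2, also a choice made after seeing the data, 23 of 32 were lower and 9 higher (median −0.11). The sign turned for 10 genes when shC tumour 2 alone was left out. Of these, Col14a1 was then at 0.26, Pcolce at 0.11, Col27a1 at 0.072, Col5a1 at 0.052, Fbn1 at 0.034 and Bgn at 0.030 on the log2 scale, and the other 4 were Col1a1, Col3a1, Dcn and Loxl1. With single tumours left out, 0 to 3 of these genes had an unadjusted p under 0.05, where 216 to 618 of all 9262 to 9545 genes did. None had an adjusted p under 0.05. Within the 4 tumours whose library codes have the prefix FG, 24 of 33 were lower (median −0.17), and within the 4 with the prefix FM, 23 of 31 (median −0.21).

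**Figure D2:**
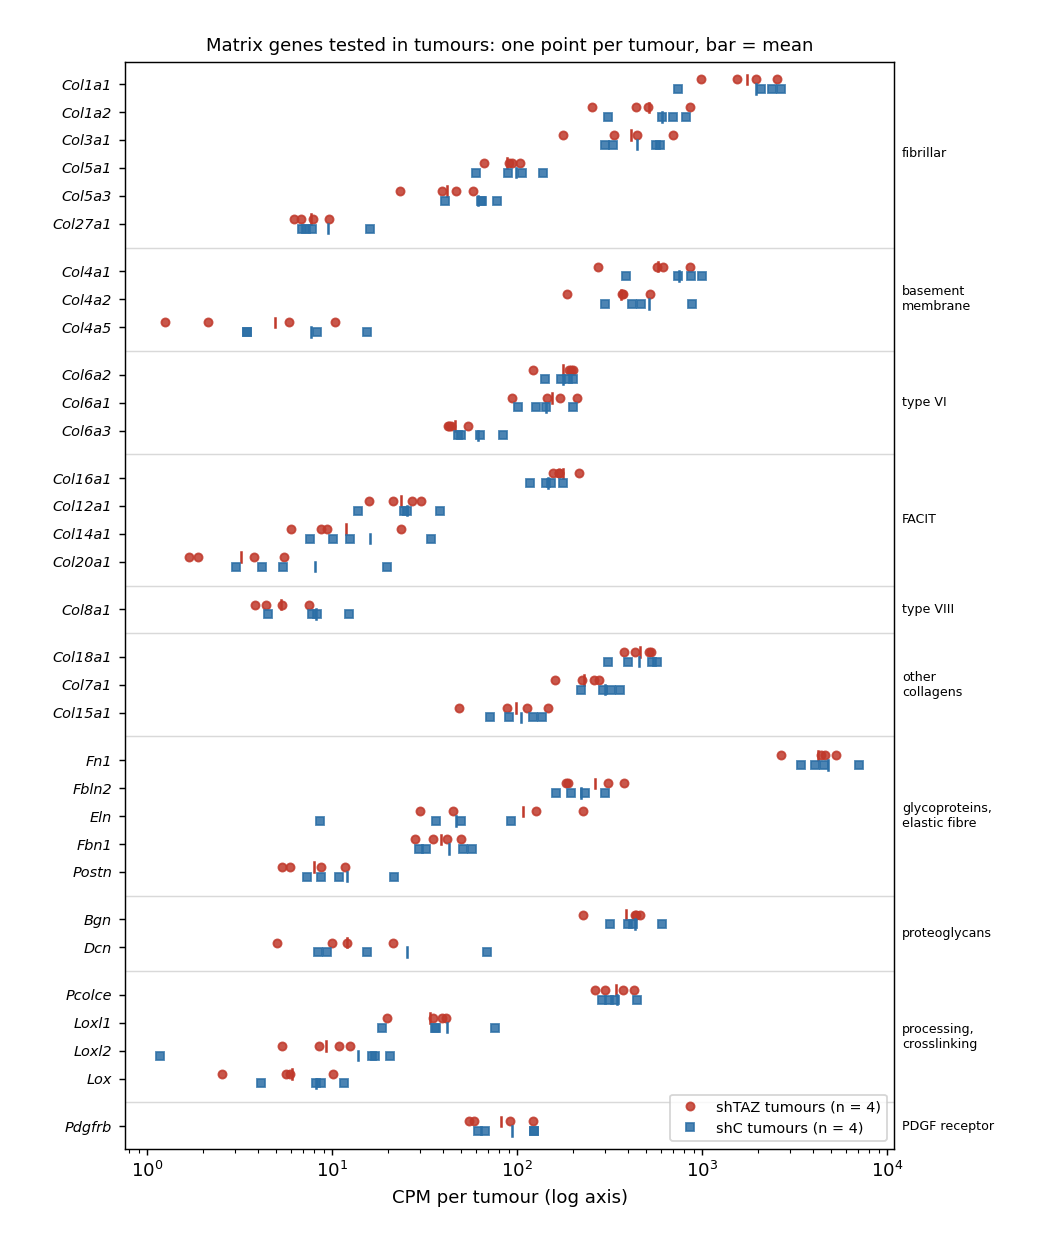
CPM of the 32 tested genes in each tumour on a logarithmic axis, grouped by role, with shTAZ tumours as circles above shC tumours as squares and short vertical bars for the means of 4. The 2 groups overlap for every gene, from Fn1 at 2684 to 7086 CPM to Col20a1 at 1.68 to 19.9 CPM.

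Fibrillar collagens were lower on average in shTAZ tumours for 6 of 6 tested genes, none past the test, with log2 fold changes of −0.57 to −0.11. Col1a1 had 983, 2548, 1545 and 1953 CPM in shTAZ tumours 1 to 4, against 745, 2677, 2072 and 2379 CPM in shC tumours 1 to 4. Tumour 2 of each group was the highest and tumour 1 the lowest, and the log2 fold change of −0.16 (SE 0.38) was within the spread. Col1a2 had 255, 864, 440.0 and 507 CPM in shTAZ tumours 1 to 4, against 312, 817, 698 and 609 CPM in shC tumours 1 to 4. The same 2 tumours, shTAZ tumour 1 and shC tumour 1, were lowest for Col1a1, Col1a2 and Col3a1, and the log2 fold change of Col1a2 was −0.24 (SE 0.36). Col3a1 had 177, 698, 334 and 445 CPM in shTAZ tumours 1 to 4, against 298, 589, 563 and 332 CPM in shC tumours 1 to 4, a log2 fold change of −0.11 (SE 0.37). Col27a1, a fibrillar collagen known from cartilage, had 7.90, 9.65, 6.26 and 6.79 CPM in shTAZ tumours 1 to 4, against 7.20, 16.0, 7.76 and 6.86 CPM in shC tumours 1 to 4, a log2 fold change of −0.28 (SE 0.35), and shC tumour 2 alone lay above the range of the shTAZ tumours. The smallest p of the fibrillar group, chosen after the values were seen, belonged to Col5a3, a chain of type V collagen, with 46.5, 57.9, 23.2 and 39.1 CPM in shTAZ tumours 1 to 4, against 77.9, 64.4, 41.0 and 63.9 CPM in shC tumours 1 to 4. All shC tumours but the third were above every shTAZ tumour, and the test gave a log2 fold change of −0.57 (SE 0.28) with exact permutation p = 0.143 and edgeR adjusted p = 0.923. Without shC tumour 2, the highest shC tumour for all 3 chains of types I and III, Col1a1 was at 0.016, Col1a2 at −0.070 and Col3a1 at 0.049 on the log2 scale. Col5a1 gave −0.15 (SE 0.25) at 66.1 to 104 CPM in shTAZ tumours and 60.3 to 139 CPM in shC tumours. Summed over the 10 listed fibrillar collagens, shTAZ tumours 1 to 4 held 1539, 4276, 2453 and 3046 CPM, against 1512, 4307, 3476 and 3504 CPM in shC tumours 1 to 4.

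Basement membrane collagens had fold changes below 0 for 3 of 3 tested genes. Col4a1 had 857, 573, 273 and 611 CPM in shTAZ tumours 1 to 4, against 1001, 742, 389 and 870.2 CPM in shC tumours 1 to 4. The second chain, Col4a2, had 523, 373, 185 and 368 CPM in shTAZ tumours 1 to 4, against 882, 420.2, 298 and 470.3 CPM in shC tumours 1 to 4. In both groups tumour 3 was the lowest for both chains and tumour 1 the highest, and the ranges overlapped. The log2 fold changes were −0.37 (SE 0.35) for Col4a1 and −0.52 (SE 0.36) for Col4a2, with edgeR adjusted p of 0.928 and 0.923. The 2 genes lie head to head on chromosome 8, Col4a1 on the minus strand from 11198423 to 11312826 and Col4a2 on the plus strand from 11312805 to 11449287, so that their annotated ends overlap. Their 3′ ends, where the reads of this method lie, are at the opposite outer ends of the pair. Col4a5, a chain of type IV in kidney and skin basement membranes, was at 1.25 to 10.4 CPM in shTAZ tumours and 3.45 to 15.5 CPM in shC tumours, a log2 fold change of −0.65 (SE 0.64). Without shC tumour 1, Col4a2 was at −0.12 and Col4a5 at 0.032 on the log2 scale. With single tumours left out, Col4a1 ranged from −0.63 to −0.15.

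Of type VI collagen, 3 chains were tested and 0 called. Col6a1 had 209.6, 172, 93.9 and 144 CPM in shTAZ tumours 1 to 4, against 127, 199.8, 101 and 144 CPM in shC tumours 1 to 4. Col6a2 had 191, 199.6, 121 and 196 CPM in shTAZ tumours 1 to 4, against 142, 202, 173 and 189 CPM in shC tumours 1 to 4. Both were nearly equal between the groups, with log2 fold changes of 0.12 (SE 0.26) and 0.0093 (SE 0.19). Col6a3, the long chain that joins them in the microfibril, had 43.0, 54.5, 42.6 and 44.2 CPM in shTAZ tumours 1 to 4, against 83.8, 49.8, 62.9 and 48.04 CPM in shC tumours 1 to 4. Its 3 lowest tumours were shTAZ tumours, and shTAZ tumour 2 lay among the shC tumours. The log2 fold change was −0.42 (SE 0.21) with exact permutation p = 0.114 and edgeR adjusted p = 0.923, and the gene is named after its values were seen.

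Among the other collagens, Col18a1 had 376, 513, 434 and 527 CPM in shTAZ tumours 1 to 4, against 399, 539, 568 and 308 CPM in shC tumours 1 to 4, a log2 fold change of 0.029 (SE 0.21), which is within the spread. Col7a1 had 159.7, 225, 260.4 and 276 CPM in shTAZ tumours 1 to 4, against 222, 322, 361 and 292 CPM in shC tumours 1 to 4. Of its shC tumours 3 were above every shTAZ tumour, and the remaining one was above shTAZ tumour 1 alone, with a log2 fold change of −0.38 (SE 0.21) and exact permutation p = 0.171 (edgeR adjusted p = 0.923). Of the fibril-associated collagens, Col16a1 had 157, 217, 168 and 169 CPM in shTAZ tumours 1 to 4, against 143, 177, 117 and 152 CPM in shC tumours 1 to 4, a log2 fold change of 0.27 (SE 0.17). Col12a1 had 15.8, 30.2, 21.3 and 27.2 CPM in shTAZ tumours 1 to 4, against 13.8, 24.4, 25.4 and 38.3 CPM in shC tumours 1 to 4, a log2 fold change of −0.091 (SE 0.33). In both, the groups overlapped. Col14a1, another fibril-associated collagen of connective tissue, was at 6.01 to 23.5 CPM in shTAZ tumours and 7.57 to 34.1 CPM in shC tumours (−0.41, SE 0.55). Col15a1 was at 48.8 to 146 CPM in shTAZ tumours and 71.6 to 136 CPM in shC tumours (−0.085, SE 0.31). Col20a1, a fibril-associated collagen of few counts, had the smallest p of all 32 genes and is named after its values were seen. It was at 3.79, 1.68, 1.88 and 5.52 CPM in shTAZ tumours 1 to 4, against 19.9, 4.18, 3.02 and 5.42 CPM in shC tumours 1 to 4. Most of the difference lay in shC tumour 1, and a log2 fold change of −1.41 (SE 0.64) came with exact permutation p = 0.2 (edgeR adjusted p = 0.923). Without shC tumour 1 it was too low to be tested. The network-forming Col8a1 had 5.37, 7.55, 4.38 and 3.82 CPM in shTAZ tumours 1 to 4, against 12.3, 4.53, 7.76 and 8.31 CPM in shC tumours 1 to 4, a log2 fold change of −0.66 (SE 0.38), exact permutation p = 0.143 (edgeR adjusted p = 0.923). Its partner chain Col8a2 was not tested and had 0.316, 0.839, 0.626 and 1.70 CPM in shTAZ tumours 1 to 4, against 1.30, 2.44, 0.862 and 1.08 CPM in shC tumours 1 to 4.

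The glycoproteins and proteoglycans varied more between tumours than between groups. Fn1 had 4414, 2684, 4632 and 5298 CPM in shTAZ tumours 1 to 4, against 7086, 3432, 4088 and 4580.2 CPM in shC tumours 1 to 4. The highest was shC tumour 1 and the lowest shTAZ tumour 2, and a log2 fold change of −0.17 (SE 0.26) was smaller than its error. Fbln2 had 309.8, 188, 184 and 378 CPM in shTAZ tumours 1 to 4, against 196, 234, 300.5 and 161 CPM in shC tumours 1 to 4, with a value of 0.25 on the log2 scale (SE 0.27). Eln, which encodes elastin and had the largest fold change above 0 among these genes, is named after its values were seen. It had 29.7, 226, 45.1 and 127 CPM in shTAZ tumours 1 to 4, against 8.62, 36.6, 92.7 and 49.8 CPM in shC tumours 1 to 4. The groups overlapped, with shTAZ tumours 2 and 4 the highest and shC tumour 1 the lowest, and the test gave a log2 fold change of 1.23 (SE 0.72) and exact permutation p = 0.286 (edgeR adjusted p = 0.923). Postn, which encodes periostin, a matricellular protein of activated fibroblasts, was at 5.37 to 11.7 CPM in shTAZ tumours and 7.31 to 21.6 CPM in shC tumours, a log2 fold change of −0.60 (SE 0.41), and Fbn1, which encodes the microfibril protein fibrillin, gave a value of −0.13 (SE 0.26). Bgn had 227, 462, 439 and 432 CPM in shTAZ tumours 1 to 4, against 318, 605, 400.1 and 421 CPM in shC tumours 1 to 4, a log2 fold change of −0.16 (SE 0.25). Dcn had 12.0, 5.03, 10.0 and 21.2 CPM in shTAZ tumours 1 to 4, against 8.41, 68.6, 15.5 and 9.39 CPM in shC tumours 1 to 4. It was highest in shC tumour 2, and the log2 fold change was −1.05 (SE 0.69) with all tumours and 0.15 (SE 0.46) without that tumour.

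The enzymes that process and crosslink collagen had fold changes below 0 for 4 of 4 genes, again none past the test. Pcolce had 373, 429, 298 and 263 CPM in shTAZ tumours 1 to 4, against 287, 443, 338 and 315 CPM in shC tumours 1 to 4, a log2 fold change of −0.020 (SE 0.19). Loxl1 had 19.9, 41.5, 35.0 and 39.5 CPM in shTAZ tumours 1 to 4, against 18.5, 76.2, 36.6 and 36.1 CPM in shC tumours 1 to 4. Its value was highest in shC tumour 2, and the log2 fold change was −0.29 (SE 0.40) with that tumour and 0.17 (SE 0.32) without it. Lox, the first lysyl oxidase, and Loxl2, which acts on type IV collagen, had log2 fold changes of −0.40 (SE 0.46) and −0.53 (SE 0.69) at 2.53 to 11.6 and 1.17 to 20.6 CPM. Pdgfrb had 122, 91.9, 58.2 and 55.2 CPM in shTAZ tumours 1 to 4, against 67.5, 123, 61.6 and 123 CPM in shC tumours 1 to 4, a log2 fold change of −0.19 (SE 0.31). The 14 listed genes that were not tested were low, the highest value of any of them belonging to Fbln1. Fbln1, an elastic fibre glycoprotein gene, had 0.316, 0.839, 0 and 1.27 CPM in shTAZ tumours 1 to 4, against 0.335, 27.9, 0.862 and 1.08 CPM in shC tumours 1 to 4, so most of its counts came from shC tumour 2. The remaining 13, among them the type V chain Col5a2, the cartilage collagen chains Col2a1 and Col11a2 and the transmembrane collagens Col13a1 and Col23a1, were at or below 9.496 CPM in every tumour.

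**Figure D3:**
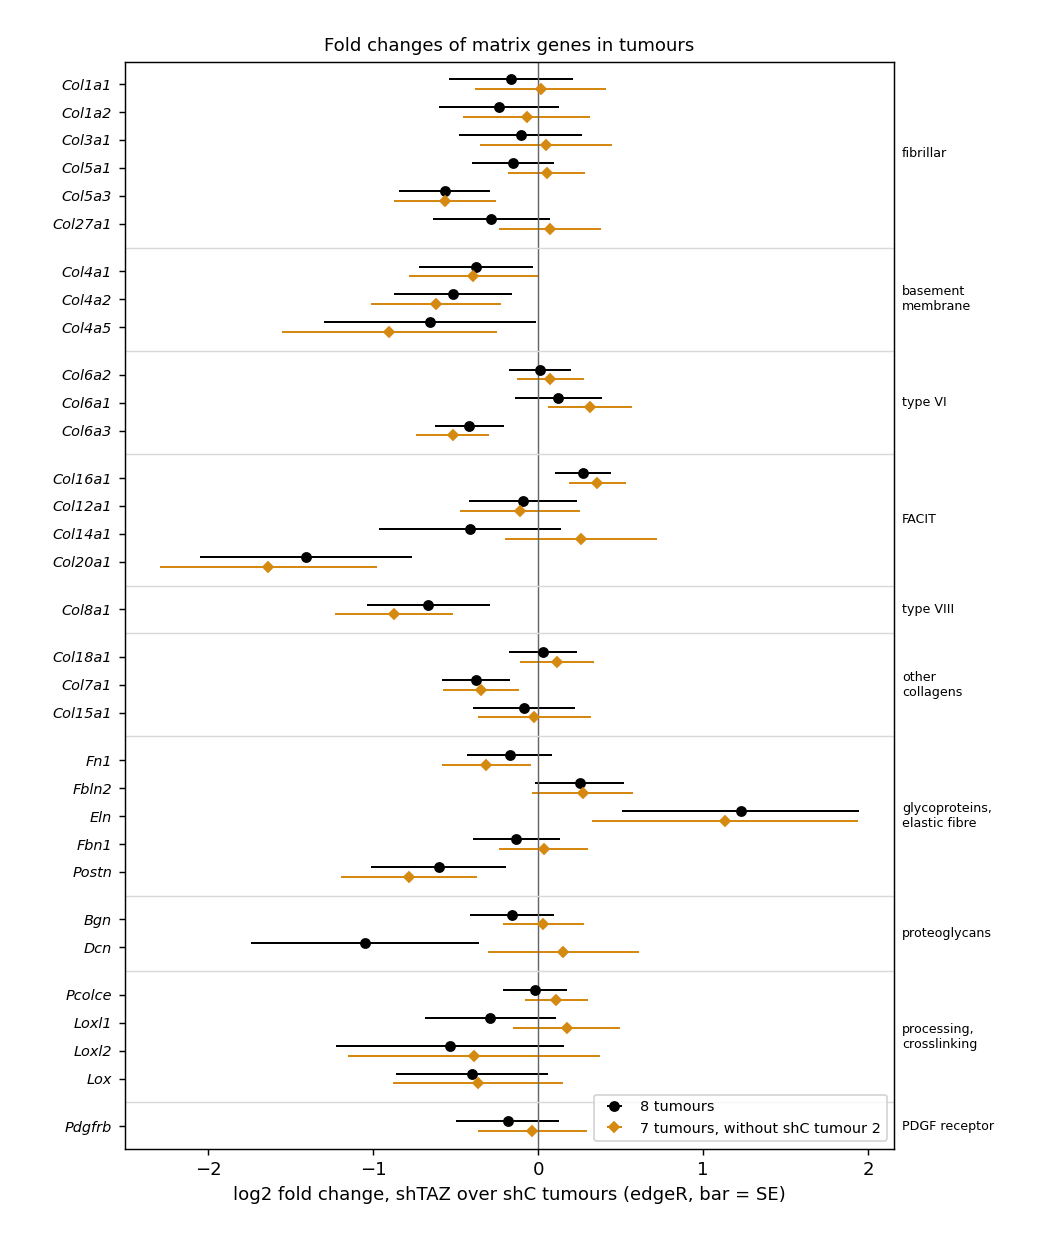
Log2 fold change of shTAZ over shC tumours for the 32 tested genes (edgeR, bars are SE), with all 8 tumours as black circles and without shC tumour 2 as orange diamonds. With all tumours 26 genes are below 0, and without shC tumour 2 16 are, with Dcn at −1.05 and at 0.15.

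The extreme values fell mostly in 4 tumours. Of the 32 tested genes, 11 were highest in shC tumour 2 and 8 in shC tumour 1, while 9 were lowest in shTAZ tumour 3 and 8 in shTAZ tumour 1. Among the 20 genes that were under 5 CPM in cultures or listed for tumours alone, 18 had a fold change below 0 and 2 above, with a median of −0.26, and without shC tumour 2 there were 10 below and 10 above (median −0.0040). Among the 12 that the cultures expressed at 5 CPM or more, 8 were below 0 and 4 above, with a median of −0.16, and without shC tumour 2 there were 6 and 6 (median −0.13). The 46 genes made up 0.952 to 1.18% of the counts of shTAZ tumours and 1.13 to 1.37% of those of shC tumours, and summed to 9775 to 12209 CPM in shTAZ tumours and 11094 to 12778 CPM in shC tumours, ranges that overlapped.

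**Figure D4:**
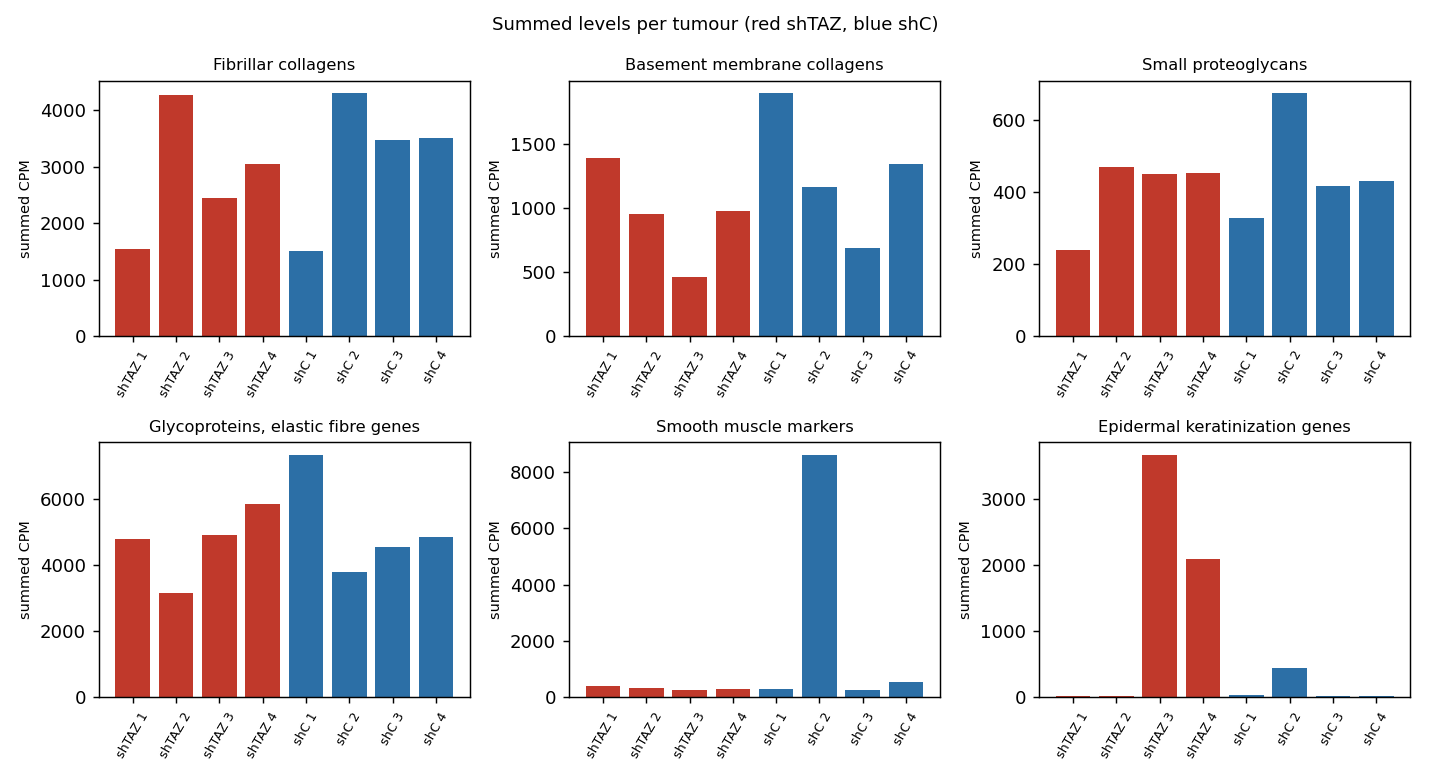
Summed CPM of 4 groups of matrix genes and of 2 marker lists in each tumour, shTAZ tumours 1 to 4 in red and shC tumours 1 to 4 in blue. Fibrillar collagens are low in shTAZ tumour 1 and shC tumour 1 (1539 and 1512 CPM), smooth muscle markers are high in shC tumour 2 (8623 CPM), and epidermal genes are high in shTAZ tumours 3 and 4.

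In cultured cells the question was whether TAZ silencing changed the matrix genes of the cancer cells on their own, and again none was called changed. The fit for cultures carried 1 surrogate variable, so its fold changes can differ from the ratio of the mean CPM. Of the 31 listed genes 15 were tested, and 0 of these had an adjusted p under 0.05 (0% of all 9828 genes, edgeR). At an unadjusted p under 0.05 there were 0 of 15 with edgeR, against 5.05% of all genes, and 0 with DESeq2. Fold changes were above 0 for 8 and below 0 for 7, with a median of 0.023. Of all 9828 genes, 4747 were above 0 and 5081 below, with a median of −0.015. The groups did not overlap for 1 of 15, against 5.57% of all tested genes. That gene was Col4a2, with 454, 430.0 and 509 CPM in shTAZ cells 1 to 3, against 407, 363 and 332 CPM in shC cells 1 to 3. Its lowest shTAZ culture was above its highest shC culture, with a log2 fold change of 0.35 (SE 0.21), an edgeR adjusted p of 0.997 and an exact two-sided permutation p of 0.1. Its chain partner Col4a1 had 383, 351 and 267 CPM in shTAZ cells 1 to 3, against 362, 274 and 217 CPM in shC cells 1 to 3, a log2 fold change of −0.022 (SE 0.22). Here the cultures overlapped, and the sign turned with other settings.

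For the other matrix genes tested in cultured cells, the ranges of the 2 groups overlapped. Fn1 had 815, 1030.1 and 1127 CPM in shTAZ cells 1 to 3, against 839.9, 667 and 1108 CPM in shC cells 1 to 3, a log2 fold change of 0.35 (SE 0.23). Col18a1 had 756, 468 and 528 CPM in shTAZ cells 1 to 3, against 678, 417 and 432 CPM in shC cells 1 to 3, a log2 fold change of 0.023 (SE 0.24). In each of these the culture with the highest value was an shTAZ culture, yet the ranges overlapped. Fbln2 had 301, 279 and 214 CPM in shTAZ cells 1 to 3, against 298, 282 and 228 CPM in shC cells 1 to 3, a log2 fold change of −0.23 (SE 0.22). Pcolce had 289.9, 148 and 150.5 CPM in shTAZ cells 1 to 3, against 255, 208 and 96.2 CPM in shC cells 1 to 3, a log2 fold change of −0.28 (SE 0.29). In both, the groups overlapped. Col16a1 was at 129 to 166 CPM in shTAZ cells and 82.3 to 161 CPM in shC cells (log2 fold change 0.12, SE 0.24). For Col7a1 the ranges were 66.3 to 118 CPM in shTAZ cells and 66.7 to 79.3 CPM in shC cells (0.024, SE 0.29). Col8a1, the one gene higher in cultures than in tumours, was at 12.9 to 27.7 CPM in shTAZ cells and 18.9 to 23.9 CPM in shC cells (−0.41, SE 0.38), and Col6a1 at 10.9 to 14.8 CPM in shTAZ cells and 6.47 to 16.5 CPM in shC cells (−0.19, SE 0.40). The smallest p belonged to Col4a5, named after its values were seen, with 0.478, 1.68 and 6.97 CPM in shTAZ cells 1 to 3, against 8.15, 9.78 and 6.47 CPM in shC cells 1 to 3. Cells 1 and 2 of shTAZ lay below every shC culture and cells 3 among them, and the log2 fold change was −1.07 (SE 0.56) with edgeR adjusted p = 0.997. Without shTAZ cells 3 it was −3.00 (edgeR adjusted p = 1.00). With the replicate number, which pairs the cultures, as a block in place of the surrogate variable, Col4a5 was at −1.46 (edgeR adjusted p = 0.798). It was then the 1 gene of 15 at an unadjusted p under 0.05, against 543 of all 9828 genes. In that fit 12 of 15 fold changes were above 0, and 11 of 15 were with neither the block nor the surrogate variable. The shares over all genes in these fits are not given here, so a shift of all genes cannot be told apart.

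At the low end of the cultures, Col3a1, Col6a2 and Col27a1 were not tested but did not overlap between the groups. They were 3 of the 16 listed genes too low to be tested, and over all 1965 such genes of the cultures 6.82% did not overlap. Col3a1 had 5, 5 and 6 counts in shTAZ cells 1 to 3, against 0, 6 and 3 counts in shC cells 1 to 3, which is 2.39, 2.10 and 0.709 CPM in shTAZ cells and 0, 0.559 and 0.202 CPM in shC cells. Col6a2 had 2, 5 and 9 counts in shTAZ cells, against 3, 2 and 13 counts in shC cells, or 0.955, 2.10 and 1.06 CPM in shTAZ cells and 0.445, 0.186 and 0.877 CPM in shC cells. Col27a1 had 0, 0 and 3 counts in shTAZ cells and 5, 8 and 6 counts in shC cells, or 0, 0 and 0.354 CPM in shTAZ cells and 0.741, 0.745 and 0.405 CPM in shC cells. With so few counts, a difference in any of these was not detectable by the test at this depth. Of the tested genes at this level, Pdgfra was at 0.478 to 2.52 CPM in shTAZ cells and 0.472 to 2.37 CPM in shC cells (log2 fold change 0.031, SE 0.80). Col1a1 was at 0.709 to 2.94 CPM in shTAZ cells and 0.607 to 1.48 CPM in shC cells (−0.26, SE 0.90), and Col1a2 at 1.26 to 4.30 CPM in shTAZ cells and 0.593 to 1.96 CPM in shC cells (0.71, SE 0.90). Col5a1, at 10.98 to 25.2 CPM in shTAZ cells and 10.7 to 13.3 CPM in shC cells, gave 0.47 (SE 0.40).

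The change in tumours was set against the change in cells by an interaction term over all 14 libraries. Its fit normalized tumours and cultures together and, unlike the fit for cultures alone, carried no surrogate variable. Of 26 genes tested there, 0 had an adjusted p under 0.05 (0% of all 9584 genes, edgeR), and 3 had an unadjusted p under 0.05, against 2.44% of all. These were Col6a3, Col11a2 and Col3a1, with differences (tumours minus cells, log2) of −3.28, −3.25 and −2.33 and an adjusted p of 1.00 for each (edgeR). Each rested on few counts in the cultures, and with at least 10 counts in every library 0 of 10 genes had such a p. Col6a3 had 8 counts over the shTAZ cells and 2 over the shC cells, Col11a2 had 41 over the shTAZ cells and 19 over the shC cells, and Col3a1 had 16 over the shTAZ cells and 9 over the shC cells. Col4a2, which was abundant in both settings, was at −0.52 in tumours and 0.35 in cells, and the test of the difference gave −0.84 (SE 0.47, edgeR adjusted p = 1.00).

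Chains that share a molecule were also compared with each other inside each library, where normalization plays no part. The count of Col1a1 was 3.86, 2.95, 3.51 and 3.85 times that of Col1a2 in shTAZ tumours 1 to 4, against 2.39, 3.28, 2.97 and 3.91 times in shC tumours 1 to 4. The 2 groups overlapped, and the lowest ratio was that of shC tumour 1. For Col4a1 to Col4a2 the ratio was 1.64, 1.54, 1.47 and 1.66 in shTAZ tumours, against 1.13, 1.76, 1.30 and 1.85 in shC tumours. In cultures it was 0.842, 0.815 and 0.524 in shTAZ cells, against 0.891, 0.754 and 0.653 in shC cells. Every tumour was thus above 1 and every culture below 1, and the groups overlapped within each setting. Col6a1 to Col6a3 ranged from 2.21 to 4.88 in shTAZ tumours and from 1.51 to 4.01 in shC tumours, and Col6a2 to Col6a3 from 2.85 to 4.44 in shTAZ tumours and from 1.69 to 4.05 in shC tumours. These ratios have no test.

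**Figure D5:**
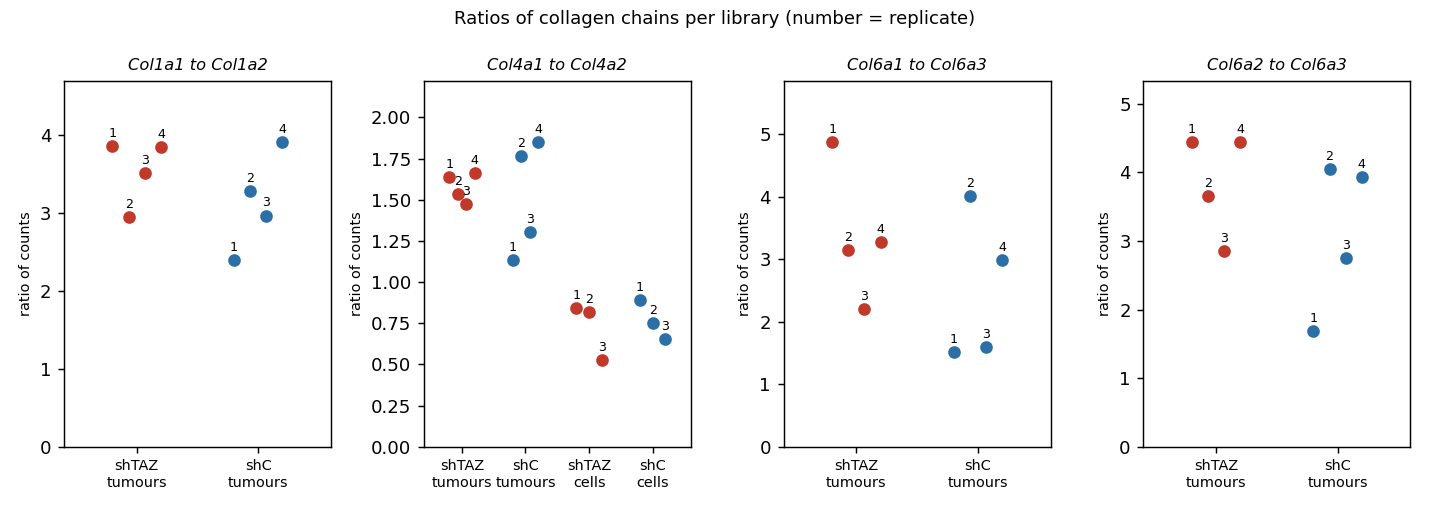
Ratio of the counts of 2 collagen chains in each library that held at least 10 counts of both, with shTAZ in red left of shC in blue and the replicate number above each point. The ratio of Col4a1 to Col4a2 is 1.13 to 1.85 over the tumours and 0.524 to 0.891 over the cultures.

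The wider machinery of the matrix was likewise not called changed in tumours. Of 18 tested genes for the folding, modification and secretion of collagen, 11 were above 0 and 7 below (median log2 fold change 0.064), with Plod2, a lysyl hydroxylase of collagen, at −0.61 (SE 0.31, edgeR adjusted p = 0.923). Of 6 procollagen proteinases and lysyl oxidase relatives, 4 were above 0 and 2 below, and of 6 collagen receptors and uptake genes 3 and 3, with Ddr2, a receptor tyrosine kinase for fibrillar collagen, at −0.80 (SE 0.38, edgeR adjusted p = 0.923). Of 19 other matrix genes, 6 were above 0 and 13 below (median −0.10), and 1 had an unadjusted p under 0.05. This was Sparcl1, a matricellular protein gene of the SPARC family, at 39.1 ± 19.3 CPM in shTAZ tumours and 105 ± 60.8 CPM in shC tumours (SD, n = 4 each), a log2 fold change of −1.42 (SE 0.46), exact permutation p = 0.0571 (edgeR adjusted p = 0.923).

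Markers of cells that make matrix, or of their neighbours, were not called changed either. Of 10 tested other fibroblast markers, 4 were above 0 and 6 below, and the sums of the list were given above. Pericyte markers were above 0 for 1 and below for 5 of 6, with sums of 83.9 to 322 CPM in shTAZ tumours and 103 to 308 CPM in shC tumours, and the pericyte proteoglycan gene Cspg4 was at −0.97 (SE 0.44, edgeR adjusted p = 0.923). Endothelial markers were above 0 for 2 and below for 7 of 9, with sums of 611 to 960.2 CPM in shTAZ tumours and 537 to 1124 CPM in shC tumours. Macrophage markers were above 0 for 7 of 8, with sums of 6262 to 8874 CPM in shTAZ tumours and 3739 to 7271 CPM in shC tumours. Proliferation genes were above 0 for 8 of 8, with sums of 353 to 895 CPM in shTAZ tumours and 182 to 547 CPM in shC tumours. All of these ranges overlapped, no gene of these 5 lists had an unadjusted p under 0.05, and their part in the values of the collagens was not tested. Smooth muscle markers were below 0 for 6 of 6, 5 of them with an unadjusted p under 0.05 but none with an adjusted one, with shC tumour 2 far above the rest as given above.

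In cultures, 16 genes of collagen folding, modification and secretion were tested, of which 9 were above 0 and 7 below, and 0 had an unadjusted p under 0.05. Of 11 other matrix genes, 4 were above 0 and 7 below. The 1 with an unadjusted p under 0.05 was Thbs1, which encodes the matricellular glycoprotein thrombospondin 1, at 49.96 ± 21.8 CPM in shTAZ cells and 75.5 ± 57.0 CPM in shC cells (SD, n = 3 each), a log2 fold change of −1.07 (SE 0.46) with edgeR adjusted p = 0.902. Proliferation genes were below 0 for 10 of 10, 7 of them having an unadjusted p under 0.05 but none with an adjusted one, although their sums of 667 to 2045 CPM in shTAZ cells and 847 to 1986 CPM in shC cells overlapped. Smooth muscle, pericyte and endothelial markers gave 2, 1 and 2 tested genes in cultures, none at an unadjusted p under 0.05. At an unadjusted p under 0.05 there were 1 of 2 bone and cartilage genes (above 0), 1 of 2 other fibroblast markers (below 0) and 1 of 7 tumour epithelium markers (below 0). None of them had an adjusted p under 0.05.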

How the data were processed

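The study measured 4 shTAZ and 4 shC tumours and 3 shTAZ and 3 shC cultures. The authors trimmed the MARS-seq reads with cutadapt, mapped them to GRCm38 (mm10) with STAR and counted them per gene with HTSeq, and these raw counts, as deposited in 1 table for tumours and 1 for cultures, are the values used here. Whether molecular identifiers were collapsed is not given in the sources used here, and intervals from counts cover counting error only. The normalized values and the authors' DESeq2 comparisons, which for cultures had batch correction with sva, were not used. All columns of raw counts were matched to samples, and groups came from the labels. Clones with TAZ knocked out were not analysed here.

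Genes were filtered with filterByExpr, normalized by TMM within each table and tested over the whole table with edgeR 4.0.16 (quasi-likelihood, Benjamini-Hochberg adjustment) in R 4.3.3. The fit for cultures carried 1 surrogate variable from sva 3.50.0. The difference between tumours and cultures was tested as an interaction over all 14 libraries. That fit started from the 11150 genes listed for both, normalized all libraries together by TMM and carried no surrogate variable. DESeq2 1.42.0, other size factors, other filters, a replicate block, the prefix of the library codes, surrogate variables and leaving out each library were the alternatives, and the scripts were tested on simulated data.

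The genes and lists were chosen with earlier results of these data known. Values of every library are given for genes with an unadjusted p under 0.05 or without overlap between groups, and for the 2 genes of each role with the highest mean CPM in tumours. Others named with all values were chosen after their values were seen. The numbers of the cultures pair them, since each pair alone shares a prefix of the library codes. Deviations from the group means correlated within each pair (r = 0.36, 0.20 and 0.64), although shTAZ cells 2 correlated better with shC cells 1 (0.26). The main fit for cultures and the exact permutation did not use this pairing. Coordinates are from GENCODE vM21 and upstream sequences from RefSeq, GRCm38.p6.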

Additional observations from a re-analysis of the deposited data

Results flagged for a closer look

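Of 64 groups of 4 tumours, 2 for each of the 32 tested genes, 6 held a tumour far from the other 3 by Dixon's test at the 95% level, and chance gives about 1 in 20. Bgn was at 227 CPM in shTAZ tumour 1, against 432 to 462 CPM in the other shTAZ tumours. Col6a2 was at 121 CPM in shTAZ tumour 3, against 191 to 199.6 CPM in the others. Col6a3 was at 54.5 CPM in shTAZ tumour 2, against 42.6 to 44.2 CPM in the others. Among shC tumours, Col20a1 was at 19.9 CPM in shC tumour 1, against 3.02 to 5.42 CPM in the others. Col27a1 was at 16.0 CPM in shC tumour 2, against 6.86 to 7.76 CPM in the others, and Dcn was at 68.6 CPM in the same tumour, against 8.41 to 15.5 CPM.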

How the results depend on the processing

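No gene described here had an adjusted p under 0.05 in tumours, in cultures or in the difference between them under any alternative. At an unadjusted p under 0.05 the count in tumours was 0 with edgeR and DESeq2, 2 with no filter on low counts, 1 with the prefix of the library codes in the model, 2 with 1 surrogate variable, 1 without shC tumours 1 and 2 (chosen after seeing the data) and 0 to 3 with single tumours left out. In cultures it was 0 of 15 (496 of all 9828 genes), but 1 of 31 with no filter (730 of 11793) and 1 of 15 with the replicate block (543 of 9828). With a surrogate variable from TMM-scaled counts (chosen after seeing the data) it was 1 of 15 (386 of 9828). With single cultures left out it was 0 to 1, against 106 to 1111 of all genes. For the difference it was 3 of 26 (234 of all 9584 genes), but 0 of 10 with at least 10 counts in every library (125 of 6826). With single libraries left out it was 2 to 4, against 191 to 403 of all genes. Same-numbered tumours share a number and the prefix of their library codes, and their deviations correlated at 0.22, 0.12, 0.33 and −0.012. For shTAZ tumours 1, 2 and 4 the correlation with another shC tumour was higher (0.27, 0.15 and 0.15). A replicate block gave 6 of 32 genes in tumours at an unadjusted p under 0.05 (Col20a1, Col4a1, Col4a2, Col5a3, Col7a1 and Eln), against 494 of all 9196. In the difference it gave 6 of 26, against 437 of all 9584. The number of tested genes with a fold change below 0 in tumours was 16 to 29 with single tumours left out, and 16 to 17 of 30 genes were above every culture under all alternatives. The median log2 fold change in cultures was −0.013 with no filter and −0.071 to 0.23 with single cultures left out. The cause of these shifts was not tested.

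Signs of fold changes near 0 turned often. In tumours, log2 fold changes opposite in sign to those reported were Bgn 0.096, Col6a1 −0.021, Col6a2 −0.17, Dcn 0.37, Fn1 0.21 and Loxl1 0.048 with the prefix FM alone, Col12a1 0.27, Col18a1 −0.095, Col1a1 0.030, Pcolce 0.12 and Pdgfrb 0.16 with the prefix FG alone, Col18a1 −0.029, Col6a2 −0.036 and Fn1 0.043 with 1 surrogate variable, Col27a1 0.080, Col6a2 −0.025 and Pcolce 0.065 without shC tumours 1 and 2, Col6a2 −0.0039 with at least 10 counts in every library and Col6a2 −0.0043 with the replicate block. Leaving out single tumours gave −1.34 to 0.032 for Col4a5 and −0.33 to 0.12 for Col15a1. With single tumours left out the ranges were −0.28 to 0.030 for Bgn, −0.31 to 0.18 for Col12a1, −0.12 to 0.16 for Col18a1, −0.43 to 0.035 for Col1a1, −0.41 to 0.072 for Col27a1, −0.48 to 0.15 for Col3a1, −0.061 to 0.31 for Col6a1, −0.076 to 0.15 for Col6a2, −1.48 to 0.15 for Dcn, −0.31 to 0.087 for Fn1, −0.55 to 0.17 for Loxl1 and −0.15 to 0.11 for Pcolce. In cultures they were Col18a1 −0.025, Col7a1 −0.014 and Pdgfra −0.051 with no filter, Col1a1 0.33, Col4a1 0.25, Col6a1 0.11 and Pcolce 0.12 with the replicate block, Col1a1 0.31, Col4a1 0.23 and Pcolce 0.071 without the surrogate variable, Col1a1 0.069 and Col4a1 0.091 with one from TMM-scaled counts and Col4a1 0.057 with at least 10 counts in every library. With single cultures left out the ranges were −0.052 to 0.55 for Col16a1, −0.17 to 0.23 for Col18a1, −0.75 to 0.70 for Col1a1, −0.18 to 0.33 for Col4a1, −0.40 to 0.0095 for Col6a1, −0.18 to 0.37 for Col7a1 and −0.37 to 0.99 for Pdgfra. At this depth 14 of the 46 listed genes in tumours and 16 of the 31 in cultures were too low to be tested.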
